A study of Mus musculus with 20 samples.

Results

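Gene expression in the hippocampus was compared between mice labelled C3aR KO and wild-type (WT) mice, neither of which carries a tau transgene. The comparison used the 5 libraries titled C3aR KO and the 5 titled WT, 10 of the 20 libraries of the study, and the members were taken from the sample titles. All mice were 9-month-old males labelled C57BL/6J. The other 10 libraries came from PS19 mice, which carry a transgene for mutant human tau under the mouse prion promoter, and from PS19/C3aR KO mice, 5 of each. These entered the fit to share 1 estimate of the spread, and they gave a second pair of groups with the same label difference. The labels give neither the construction of the knockout allele nor its verification, and they leave unsaid whether separate animals stand behind the libraries. The p-values therefore measure spread between libraries, and some of that spread may be technical.

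C3aR, encoded by C3ar1, is a G protein-coupled receptor for C3a, the small peptide released when complement component C3 is cleaved. In the brain C3 comes largely from astrocytes, and the receptor is best known on microglia, the resident macrophages. Signalling through it acts on the movement, phagocytosis and cytokine output of these cells, and loss of the receptor is studied in tau models as a way to damp glial activation.

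Gene counts per library ranged from 33914400 to 40852300 in WT and from 36721200 to 47828100 in the libraries labelled C3aR KO. Values below are CPM, the read pairs of a gene relative to all counted pairs of its library after TMM scaling. The summed level of 15 dentate granule neuron markers was 678 to 867 CPM in WT and 635 to 781 CPM in the libraries labelled C3aR KO, and that of 12 CA1 pyramidal neuron markers was 1117 to 1286 and 1082 to 1264 CPM, so the defining neurons of the labelled tissue were represented in every library. Male-specific Ddx3y was at 45.9 to 57.9 CPM in all 10. Measures of library makeup were also compared. Rn45s, a ribosomal RNA precursor, took 3.59% ± 0.636 of gene counts in WT and 1.92% ± 1.41 in C3aR KO (SD, n = 5 each, exact permutation test, two-sided, p = 0.0476, Benjamini-Hochberg adjusted over 3 measures p = 0.0714). Tcf7l2, a transcription factor typical of thalamus, which lies next to the hippocampus, was at 11.6 to 33.3 CPM in WT and at 6.13 to 19.1 CPM in C3aR KO (exact permutation test of log2(CPM + 1), two-sided, p = 0.0159, adjusted p = 0.0476), a test added after its values were seen. The summed level of 15 thalamus markers was 582 to 851 CPM in WT and 566 to 622 CPM in C3aR KO, and none of the 15 passed the test across all genes. Ttr, the main transcript of choroid plexus epithelium, ranged from 12.2 to 1899 CPM in WT and from 9.53 to 3000 CPM in C3aR KO (exact permutation test of log2 CPM, p = 0.786). The part of Rn45s and of thalamic tissue in the results was examined only by adding each measure to the model.

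With no tau transgene, 10 of 16657 genes tested differed between the libraries labelled C3aR KO and WT, which is 0.06% of the genes tested (edgeR quasi-likelihood test, Benjamini-Hochberg adjusted p below 0.05). Of these, 7 were higher in the libraries labelled C3aR KO (0.042%) and 3 were lower (0.018%). The higher genes were C3ar1 itself, Gbp2b, Pcdhga4, Cryz, Lamtor3, Fam73a and Tubb6, and the lower ones were Sec24d, Kptn and Col6a4. Before adjustment, 999 genes (6%) had a p below 0.05. By DESeq2 58 genes passed, including all 10, and with the fit restricted to the 10 libraries 5 passed.

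**Figure D1:**
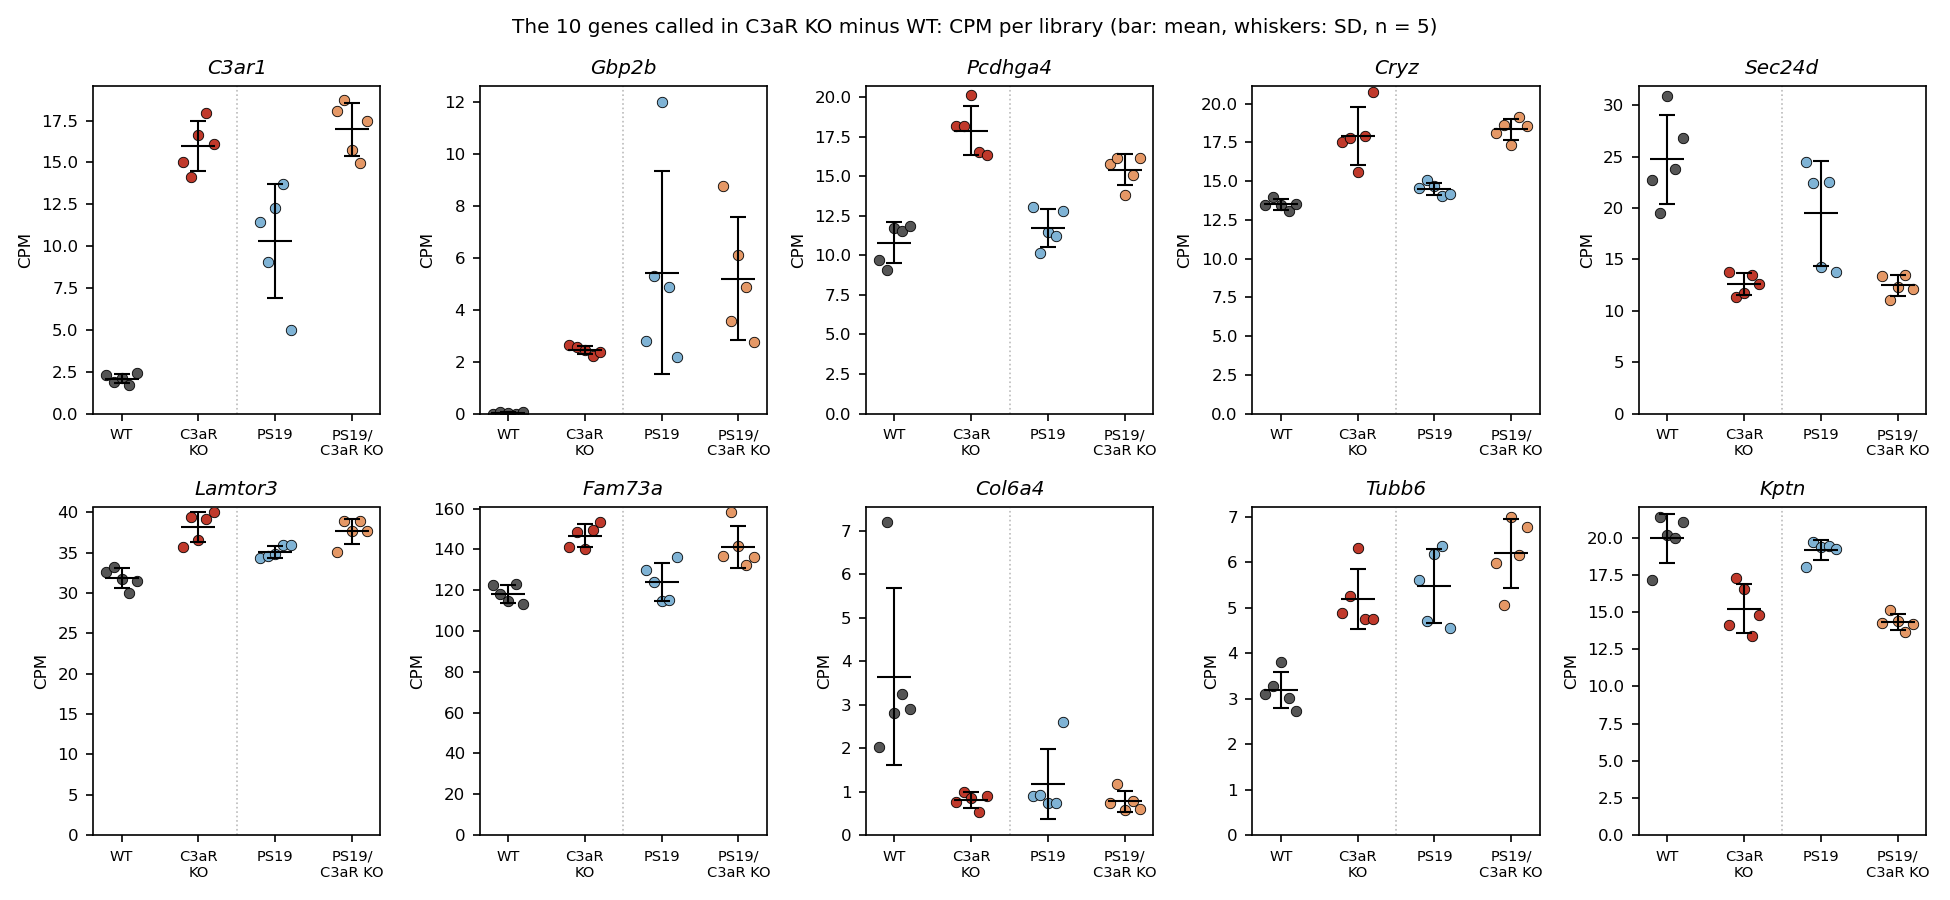
Level of each of the 10 called genes in every library of the 4 genotypes, in CPM on axes that start at 0, with the mean and SD of 5 libraries. In the left pair of each panel, only Kptn has overlapping libraries. The WT libraries of C3ar1 and Gbp2b sit below every library of the 3 other groups.

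The receptor gene went against the label. C3ar1 was at 2.30, 1.88, 2.11, 1.73 and 2.42 CPM in the 5 WT libraries and at 15.03, 14.1, 16.6, 17.98 and 16.1 CPM in the 5 libraries labelled C3aR KO. Every one of the latter lay far above every WT library, and the WT values rest on 65 to 93 counts each. The means were 2.09 ± 0.286 and 15.98 ± 1.48 CPM (SD, n = 5 each), a log2 fold change of 2.94 (SE 0.20, 95% interval 2.53 to 3.35, by edgeR adjusted p = 9.51e-08). Over 22 other settings of the analysis the log2 fold change stayed between 2.77 and 3.003. The deposited values are totals over all exons of a gene, so which part of C3ar1 the reads came from is not known here. The label is not borne out by lower C3ar1 counts, so each direction below refers to libraries by their label and C3aR KO stands for that label.

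The C3ar1 gene spans chr6:122847140-122856157 on the minus strand, in RefSeq on GRCm38.p6, the assembly that mm10 stands for. The 250 bases before its start, chr6:122856158-122856407 (minus strand), are printed because this gene had the lowest p. Capitals mark a match to the AP-1 motif TGANTCA, 22 bases before the start.
C3ar1 promoter: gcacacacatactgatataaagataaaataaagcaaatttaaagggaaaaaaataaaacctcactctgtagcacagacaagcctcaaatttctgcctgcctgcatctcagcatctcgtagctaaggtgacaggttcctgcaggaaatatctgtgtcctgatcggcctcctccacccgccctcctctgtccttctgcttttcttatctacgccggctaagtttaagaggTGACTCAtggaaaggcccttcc
That motif, searched on both strands, was present in 6.75% of 32851 promoter windows of the same length. The interferon-stimulated response element (GAAA, any 2 bases, GAAA) and the STAT motif TTCNNNGAA had no match in this window.

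Gbp2b, a guanylate-binding protein of the interferon-inducible GTPase family, was near 0 in WT and present in every other group. The WT libraries held 0, 0.0731, 0.0297, 0 and 0.0520 CPM, 6 read pairs in all, and those labelled C3aR KO held 2.65, 2.55, 2.45, 2.23 and 2.38 CPM, 493 read pairs. No WT library reached a level seen in any library labelled C3aR KO, where the 5 values lay close together. The ratio of the pooled, depth-scaled counts was 74.8 with an exact 95% counting interval of 34.1 to 205, which covers counting error only. The log2 fold change was 6.10 (SE 0.66, by edgeR adjusted p = 1.40e-04). This fitted value depends on the prior count because the WT libraries together held only 6 read pairs. The PS19 libraries, which are not labelled C3aR KO, held 2.18 to 12.02 CPM and PS19/C3aR KO libraries 2.74 to 8.75 CPM. Gbp2b and Gbp2 are close copies, so reads that fit both can be lost or split between them.

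Gbp2b lies on the plus strand of chromosome 3, chr3:142594816-142619179. The 250 bases before a RefSeq transcript start within the gene, chr3:142594597-142594846 (GRCm38.p6, plus strand), are printed because the gene had the highest fold change. The last bases of this window lie inside the gene, whose outermost start comes earlier. Capitals mark a match on the opposite strand to the interferon-stimulated response element (GAAA, any 2 bases, GAAA), which begins 137 bases before that transcript start and lies before the outermost start as well.
Gbp2b promoter: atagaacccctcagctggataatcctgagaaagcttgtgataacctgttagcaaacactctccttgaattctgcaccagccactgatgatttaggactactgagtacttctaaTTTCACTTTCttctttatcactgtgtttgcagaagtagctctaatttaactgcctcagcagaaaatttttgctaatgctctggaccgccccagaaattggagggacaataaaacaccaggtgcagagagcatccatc
That element was found in 2.98% of the 32851 windows. The AP-1 and STAT motifs had no match here, and STAT motifs were found in 7.02% of windows. A match describes letters and is no evidence of binding.

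No other gene of the interferon lists passed by edgeR. Of 16 tested guanylate-binding proteins and interferon-gamma-induced GTPases, Gbp2b passed and the other 15 did not, with 8 of the 16 above 0 and 8 below and a median log2 fold change of 0.015, against -0.0022 over all genes tested. Gbp2, its nearest copy, averaged 3.24 ± 0.355 CPM in WT against 3.04 ± 0.602 in C3aR KO (log2 fold change -0.086, SE 0.27). Gbp3 had a log2 fold change of 0.39 (adjusted p = 0.910). Gbp11 had -1.38 (SE 0.36 and adjusted p = 0.287) and Gbp10 -1.45 (SE 0.64 and adjusted p = 0.801). Among 30 interferon response genes, 0 of 30 passed by edgeR, 20 were above 0, 1 had an unadjusted p below 0.05, and the median was 0.086. Of the 30, 3 had no overlap and were higher and 1 had no overlap and was lower, against 1.24% of all genes tested. Ifi44, which lies on chromosome 3 within 10 Mb of Gbp2b, averaged 0.366 ± 0.180 CPM in WT against 1.04 ± 0.381 in C3aR KO with no overlap (log2 fold change 1.49, adjusted p = 0.801). Ifi44l, which lies beside Ifi44 and stands outside the lists, was near 0 in WT. It averaged 0.00613 ± 0.0137 CPM in WT against 0.203 ± 0.0767 in C3aR KO with no overlap. Its log2 fold change was 4.59 (SE 1.58, by edgeR adjusted p = 0.623), and it passed by DESeq2.

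Besides Gbp2b, 4 called genes lie on chromosome 3. Sec24d, a cargo-binding subunit of the COPII coat that carries proteins from the endoplasmic reticulum to the Golgi, was at 22.7, 19.5, 30.9, 23.8 and 26.8 CPM in WT and at 13.8, 11.4, 11.7, 13.5 and 12.6 CPM in C3aR KO. The groups were well apart, with the lowest WT library above the highest labelled C3aR KO. The log2 fold change was -0.97 (SE 0.15, by edgeR adjusted p = 0.00887). With Tcf7l2 in the model it was -0.83 and the adjusted p was 0.152. Cryz, the zeta-crystallin quinone oxidoreductase, was at 13.5, 13.99, 13.4, 13.05 and 13.5 CPM in WT and at 17.6, 17.8, 15.6, 17.9 and 20.7 CPM in C3aR KO. Its WT libraries were tightly grouped and all lay below the others, with a log2 fold change of 0.41 (SE 0.059, by edgeR adjusted p = 0.00497). Cryz overlaps Tyw3, and without a stated strand setting reads from overlapping genes cannot be told apart. Tyw3 itself averaged 9.71 ± 0.913 CPM in WT against 8.39 ± 0.223 in C3aR KO (log2 fold change -0.21, adjusted p = 0.623).

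The other 2 chromosome 3 genes differed by small amounts on a narrow spread. Lamtor3, a scaffold of the Ragulator complex that anchors mTORC1 signalling to lysosomes, was at 32.6, 33.3, 31.8, 30.02 and 31.5 CPM in WT and at 35.7, 39.4, 36.5, 39.2 and 39.996 CPM in C3aR KO. Fam73a, now named Miga1, which encodes the mitochondrial fusion factor mitoguardin 1, was at 122, 118, 115, 123 and 113 CPM in WT and at 141, 148, 140, 150 and 154 CPM in C3aR KO. Neither gene had overlapping groups. The log2 fold changes were 0.26 (SE 0.041, by edgeR adjusted p = 0.0120) for Lamtor3 and 0.31 (SE 0.053, by edgeR adjusted p = 0.0275) for Fam73a. With the Rn45s share in the model the adjusted p was 0.252 for Lamtor3, 0.131 for Fam73a and 0.128 for Cryz, and it was 0.0556 for Lamtor3 and 0.0737 for Fam73a without the fifth C3aR KO library. In the fit restricted to the 10 libraries it was 0.151 for Cryz and 0.165 for Lamtor3, and with Tcf7l2 in the model it was 0.0924 for Lamtor3 and 0.336 for Fam73a.

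On chromosome 18, Pcdhga4 and Tubb6 were higher. Pcdhga4, a gamma protocadherin of the neuronal adhesion cluster that gives single neurons their surface identity, was at 9.72, 9.07, 11.7, 11.5 and 11.9 CPM in WT and at 18.2, 18.2, 20.1, 16.5 and 16.3 CPM in C3aR KO. The groups did not overlap, and the log2 fold change was 0.73 (SE 0.088, by edgeR adjusted p = 5.16e-04). The gamma protocadherins share their last exons and overlap each other, so reads in shared exons cannot be assigned to a member. Of the 22 tested genes of the cluster, 10 were above 0 and 12 below, and Pcdhga4 alone passed. Pcdhgb8 averaged 1.65 ± 0.796 CPM in WT against 4.64 ± 1.43 in C3aR KO (log2 fold change 1.48, SE 0.28, adjusted p = 0.0520), and Pcdhgb6 averaged 15.6 ± 1.48 and 8.72 ± 2.67 CPM (log2 fold change -0.84, SE 0.18, adjusted p = 0.103). Both had no overlap between groups, so values on both sides of 0 stood next to each other in 1 cluster, whose median was -0.018.

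Tubb6, a beta-tubulin isotype, was at 3.10, 3.27, 3.80, 3.002 and 2.73 CPM in WT and at 4.88, 5.25, 6.32, 4.76 and 4.74 CPM in C3aR KO, with no overlap and a log2 fold change of 0.71 (SE 0.12, by edgeR adjusted p = 0.0276). Kptn on chromosome 7, which encodes kaptin, a subunit of the KICSTOR complex that restrains mTORC1, was at 17.2, 21.4, 20.2, 20.01 and 21.1 CPM in WT and at 14.1, 17.3, 16.6, 13.4 and 14.8 CPM in C3aR KO. It was the 1 called gene whose groups overlapped, as the second C3aR KO library lay just above the first WT library. Its log2 fold change was -0.39 (SE 0.069, by edgeR adjusted p = 0.0300). Tubb6 and Kptn each lost the call in 11 of 22 other settings, Tubb6 with 7 of the 10 libraries left out in turn and Kptn also with 7.

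Col6a4, a chain of collagen VI in the extracellular matrix, is named here after its values were seen, since its mean level lies below the level set for named genes. It was at 2.02, 7.19, 2.82, 3.24 and 2.91 CPM in WT and at 0.750, 0.994, 0.860, 0.5258 and 0.898 CPM in C3aR KO. All WT libraries were above all C3aR KO libraries, and the second WT library was more than double any other WT value. The log2 fold change was -2.17 (SE 0.37, by edgeR adjusted p = 0.0276), and without that WT library it was -1.76 with an adjusted p of 0.0537. The call was lost in 10 of 22 other settings.

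The called genes were unevenly placed on the chromosomes. Chromosome 3 held 5 of the 10, out of 803 genes tested there (0.623%), against 5 of 15810 elsewhere (0.0316%). In a stretch of 31.4 Mb from Sec24d to Cryz, 5 of 136 tested genes passed (3.68%). In that stretch 25 genes had an unadjusted p below 0.05 (18.4%) and 18 had no overlap between the groups (13.2%). Of the 667 other genes of chromosome 3, 0 passed by edgeR. Among these 667, 73 had an unadjusted p below 0.05 (10.9%) and 25 had no overlap (3.75%). Over all genes tested, 999 had an unadjusted p below 0.05 (6%). No overlap was seen for 207 of all genes tested (1.24%), of which 117 were higher (0.702%) and 90 lower (0.54%). The stretch was drawn from the called genes themselves, so its count of calls and the 0 calls outside it followed from that choice. Its genes with no overlap include the 5 called ones, so that count too is a description. Genes with no overlap in the stretch pointed both ways. Alpk1, the alpha-kinase that senses a bacterial sugar, averaged 15.1 ± 4.97 CPM in WT against 27.1 ± 2.68 in C3aR KO, and Tifa, the adaptor that acts below it and lies beside it, averaged 8.99 ± 1.64 and 13.6 ± 0.758 CPM. Their log2 fold changes were 0.84 (adjusted p = 0.220) and 0.60 (adjusted p = 0.103). Arsj, Zgrf1 and 5730508B09Rik nearby had log2 fold changes of -0.64, -0.54 and -0.86, also without a call. Chromosome 18 held 2 of 460 (0.435%), and 15 of its genes had no overlap (3.26%).

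**Figure D2:**
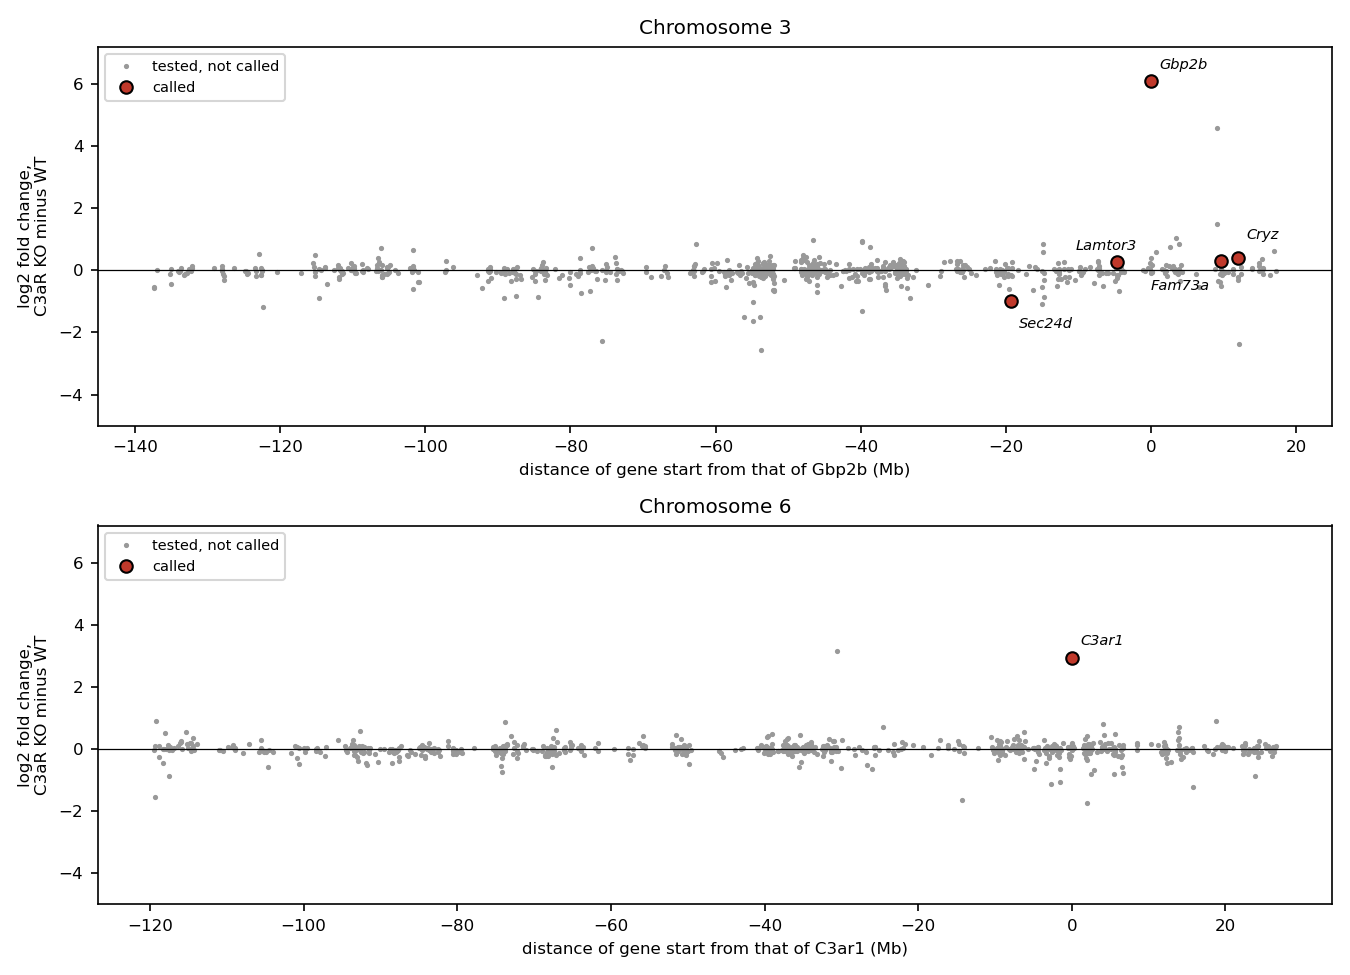
Log2 fold change of every tested gene on chromosome 3 (top) and chromosome 6 (bottom) against the distance of its start from that of Gbp2b or C3ar1, in Mb. Red points are called genes: 5 on chromosome 3, all within 20 Mb of Gbp2b, and C3ar1 alone on chromosome 6.

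Around C3ar1 itself no other gene passed. Of the 206 other genes tested within 10 Mb, 0 passed by edgeR, 17 had an unadjusted p below 0.05 (8.25%) and 5 had no overlap (2.43%). Over all genes tested these shares were 6% and 1.24%. The immediate neighbours were near 0, with log2 fold changes of -0.039 for Foxj2, 3.4e-04 for Necap1 and 0.084 for Slc2a3, a neuronal glucose transporter. The lowest p within 10 Mb was that of Ninj2, at 1.56 ± 0.257 CPM in WT against 0.713 ± 0.260 in C3aR KO (log2 fold change -1.14, SE 0.27, adjusted p = 0.196).

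Some of the next genes below the threshold, not the full ranking, are given as values only. Spata1, in the chromosome 3 stretch, averaged 1.31 ± 0.0889 CPM in WT against 2.34 ± 0.470 in C3aR KO (log2 fold change 0.84, edgeR adjusted p = 0.0520). Dpp7, a lysosomal dipeptidyl peptidase, averaged 22.6 ± 1.07 CPM in WT against 27.6 ± 2.03 in C3aR KO (log2 fold change 0.29, edgeR adjusted p = 0.0520). Coq2, an enzyme of coenzyme Q synthesis, averaged 45.8 ± 2.76 and 58.5 ± 5.34 CPM (log2 fold change 0.35, adjusted p = 0.0530), and Clcn4-2, an endosomal chloride-proton exchanger, 193.7 ± 12.05 and 223 ± 3.45 CPM (log2 fold change 0.20, adjusted p = 0.0530). Pkd2l1, a cation channel of cerebrospinal fluid-contacting neurons, had a log2 fold change of -1.55 (adjusted p = 0.0612) at 0.725 ± 0.256 and 0.245 ± 0.0741 CPM. Rdh13, a mitochondrial retinol dehydrogenase, averaged 33.6 ± 4.93 and 22.8 ± 2.20 CPM (log2 fold change -0.56, adjusted p = 0.0864). All of these had groups that did not overlap.

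Genes of the complement system were not called. Of 29 tested complement genes other than C3ar1, 0 passed by edgeR, 1 had an unadjusted p below 0.05, 14 were above 0 and 15 below, and the median log2 fold change was -0.0011, against -0.0022 over all genes. The ligand precursor C3 varied widely, at 5.06, 0.439, 4.54, 1.36 and 4.16 CPM in WT and at 2.73, 0.357, 0.565, 2.23 and 0.960 CPM in C3aR KO. The groups overlapped, and the log2 fold change was -1.18 (SE 0.65 and adjusted p = 0.868). C5ar1, the receptor for the related peptide C5a, averaged 0.461 ± 0.171 and 0.754 ± 0.118 CPM (log2 fold change 0.71, SE 0.31, adjusted p = 0.801). The 3 chains of C1q, the recognition molecule of the classical pathway, had log2 fold changes of -0.018 (C1qa), 0.34 (C1qb) and 0.27 (C1qc). C1qb and C1qc had no overlap, at 29.4 ± 3.54 against 37.2 ± 1.59 CPM and at 32.8 ± 4.04 against 39.4 ± 2.09 CPM, and C1qa averaged 43.9 ± 4.52 and 43.4 ± 1.70 CPM. Neither C1qb nor C1qc passed, and C5ar1 alone of the 29 had an unadjusted p below 0.05. No overlap was seen for 2 higher and 0 lower genes of the 29, against 0.702% and 0.54% of all genes tested. C4b averaged 73.0 ± 12.8 and 70.9 ± 10.49 CPM.

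The signalling genes that act below the receptor were not called either. Of 30 G protein, arrestin, phospholipase and kinase genes, 0 passed by edgeR and 0 had an unadjusted p below 0.05, and the median was -0.0030. Gnai2, the inhibitory G protein subunit most used by chemoattractant receptors, averaged 202 and 213 CPM (log2 fold change 0.072, SE 0.063), and Arrb2, beta-arrestin 2, 47.8 and 49.5 CPM (log2 fold change 0.050, SE 0.053). The lowest value was that of Prkcd, protein kinase C delta, which is also in the thalamus list, at 41.3 ± 10.3 and 21.1 ± 12.6 CPM with overlap (log2 fold change -0.97, SE 0.48, adjusted p = 0.842). With Tcf7l2 in the model its log2 fold change was -0.17. Of 29 JAK-STAT3 genes 0 passed, 0 had an unadjusted p below 0.05, and the median was -0.024.

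None of the listed microglial genes passed beside C3ar1. Over the 4 lists of microglial and macrophage genes, 0 of 93 genes passed by edgeR and 4 had an unadjusted p below 0.05 (4.30%). Their median log2 fold change was -0.033. Of the 93, 77 had a 95% interval within 1 log2 unit of 0, against 90.2% of all genes tested. The summed level of 32 general myeloid markers was 376 to 395 CPM in WT and 371 to 394 CPM in C3aR KO. In bulk tissue fewer cells of a type and less RNA per cell cannot be told apart. P2ry12, a purinergic receptor of resting microglia, averaged 32.8 ± 1.41 and 34.9 ± 3.47 CPM (log2 fold change 0.088, 95% interval -0.17 to 0.34), and Csf1r, the receptor on which microglia depend, 95.4 ± 8.04 and 98.5 ± 10.3 CPM (log2 fold change 0.047, 95% interval -0.26 to 0.35). Trem2, the lipid-sensing receptor of activated microglia, averaged 9.64 and 9.31 CPM (log2 fold change -0.050, SE 0.24).

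Among the 32 genes of disease-associated microglia, 0 passed by edgeR and the median was 0.050. An unadjusted p below 0.05 was seen for 4 of them, against 6% of all genes tested. Of the 32, 19 were above 0 and 13 below, from Clec7a at -0.77 to Ccl4 at 2.03. No overlap was seen for 1 higher and 1 lower gene, against 0.702% and 0.54% of all genes tested. Gpnmb, a glycoprotein of lipid-laden phagocytes, was at 3.62, 2.78, 2.99, 1.54 and 2.31 CPM in WT and at 4.93, 4.38, 4.25, 5.01 and 5.39 CPM in C3aR KO. The groups did not overlap, and the log2 fold change of 0.86 (SE 0.31) had an adjusted p of 0.645. Ccl4, a chemokine, had no read pair in 3 of the WT libraries and at most 0.275 CPM in C3aR KO (adjusted p = 0.801). Apoe, the main lipid carrier of the brain, averaged 1477 and 1455 CPM (log2 fold change -0.021, SE 0.10). Of 31 lysosomal genes 0 passed, 22 were above 0 and 4 had an unadjusted p below 0.05, against 6% of all genes tested. No overlap was seen for 2 higher and 0 lower lysosomal genes.

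**Figure D3:**
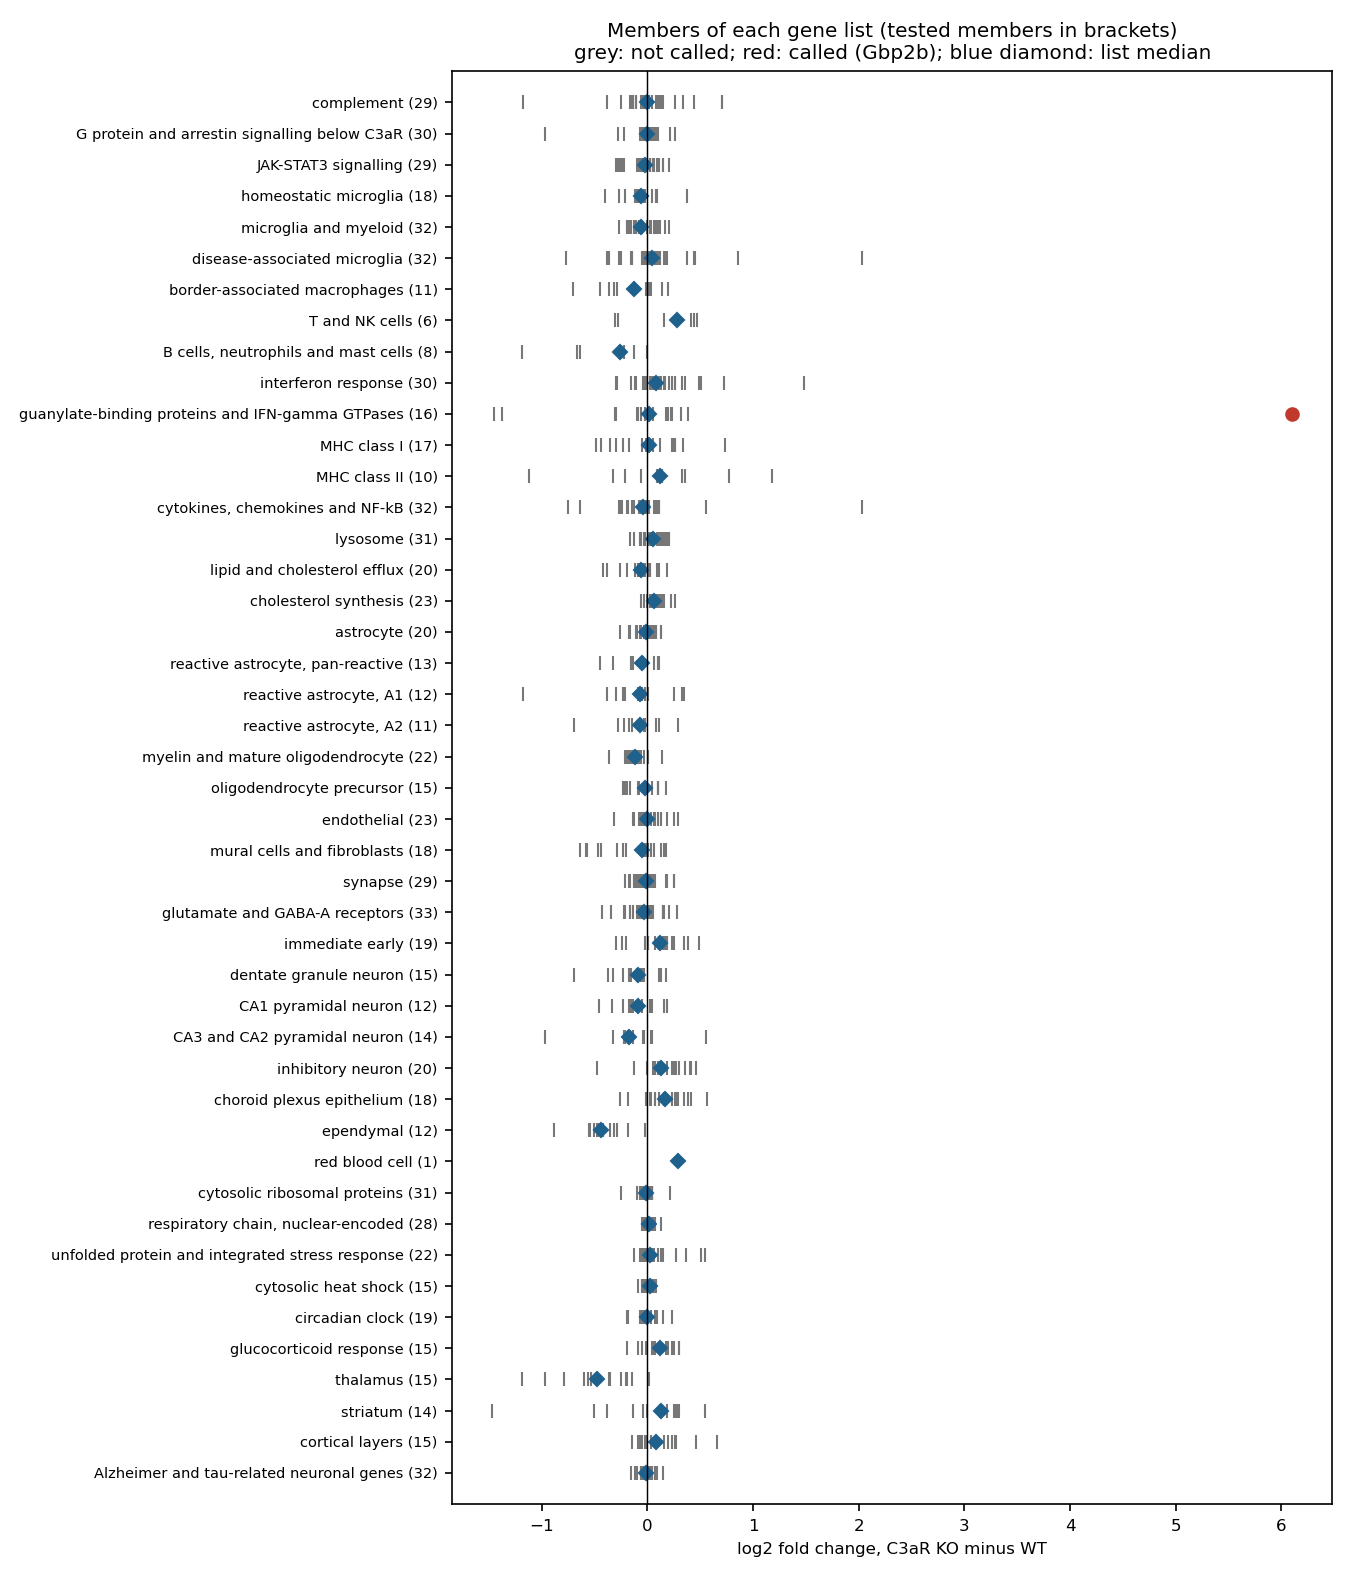
Log2 fold change, C3aR KO minus WT, of each tested member of 45 gene lists, with the list median as a diamond. Of the 836 listed genes tested, Gbp2b at 6.10 is the only called one, and the lowest medians are those of the thalamus (-0.48) and ependymal (-0.44) lists.

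Antigen presentation genes showed values on both sides of 0. Of 10 MHC class II genes 0 passed by edgeR and 4 had an unadjusted p below 0.05, against 6% of all genes tested. No overlap was seen for 1 higher and 0 lower genes of the 10, against 0.702% and 0.54% of all genes tested. The copies H2-DMb1 and H2-DMb2, which encode alternative beta chains of the peptide-loading chaperone, had log2 fold changes of -1.12 (SE 0.46) and 1.18 (SE 0.46), at 1.24 against 0.564 CPM and at 0.0913 against 0.214 CPM. The genes resemble each other, so their split is uncertain. Of 17 MHC class I genes 0 passed and 1 had an unadjusted p below 0.05, with a median of 0.012, and the same counts held for 32 cytokine, chemokine and NF-kB genes, whose median was -0.042.

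Astrocyte genes were likewise not called. Over 4 astrocyte lists 0 of 56 genes passed by edgeR, 1 had an unadjusted p below 0.05 and the median was -0.047. Gfap, the intermediate filament of astrocytes, averaged 401 and 387 CPM (log2 fold change -0.054, SE 0.28), and Aqp4, the water channel of their endfeet, 168, 162, 190, 155 and 183 CPM in WT and 163, 119, 122, 154 and 160 CPM in C3aR KO. The Aqp4 values overlapped. The marker of reactive astrocytes Serpina3n averaged 67.0 and 71.7 CPM (log2 fold change 0.098, SE 0.34).

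Neuronal lists gave no call. Of 29 synaptic genes 0 passed by edgeR, 3 had an unadjusted p below 0.05 and the median was -0.015. Of 20 inhibitory neuron genes 17 were above 0 with a median of 0.13. Of these 20, 0 passed and 3 had an unadjusted p below 0.05, against 6% of all genes tested. The score of this list is the mean log2 CPM minus its WT mean. It ran from -0.023 to 0.016 in WT and from 0.055 to 0.25 in C3aR KO, so these libraries did not overlap. Among the 45 lists, only this list had scores that did not overlap. It was picked out from them for that, so the separation is given as a description. With the transgene the scores overlapped, at -0.055 to 0.37 for PS19/C3aR KO against -0.063 to 0.14 for PS19. The list median of that pair was 0.073. Without the transgene, members ran from Calb2 at -0.48 to Lamp5 at 0.46. Of the 20, 2 had no overlap and were higher, against 0.702% of all genes tested, and 0 had no overlap and were lower. Sst, the neuropeptide somatostatin, was at 128, 140, 134, 135 and 121 CPM in WT and at 145, 196, 177, 161 and 164 CPM in C3aR KO. All 5 of the latter were above all WT libraries, with a log2 fold change of 0.35 (SE 0.10 and adjusted p = 0.423). Npy, neuropeptide Y, averaged 23.9 ± 2.14 and 31.9 ± 4.10 CPM with no overlap (log2 fold change 0.42, adjusted p = 0.604). Cort, which encodes the related peptide cortistatin and stands outside the lists, averaged 3.67 ± 0.937 and 8.08 ± 1.73 CPM with no overlap (log2 fold change 1.14, SE 0.25, adjusted p = 0.126). Among 12 CA1 and 15 dentate granule genes 0 passed, with medians of -0.089 and -0.091, and among 14 CA3 and CA2 genes 0 passed, with a median of -0.18. None of these had an unadjusted p below 0.05.

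Myelin and cholesterol genes held small values, mostly of 1 sign. Of 22 myelin genes 20 were below 0 with a median of -0.11, among them Mbp at 2475 and 2154 CPM (log2 fold change -0.20, SE 0.14), and 0 passed by edgeR with 1 at an unadjusted p below 0.05. Of 23 cholesterol synthesis genes 21 were above 0 with a median of 0.066, among them Cyp51 at 51.8 and 62.3 CPM (log2 fold change 0.26, SE 0.12), and 0 passed with 2 at an unadjusted p below 0.05. Members of such lists vary together between libraries, so counts of 1 sign are given as descriptions. Of 28 respiratory chain genes 21 were above 0 with a median of 0.021, and of 31 cytosolic ribosomal protein genes 13 were above 0 with a median of -0.0084, with 0 passing in each.

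The thalamus and ependymal lists had the lowest medians. Of 15 thalamus genes 14 were below 0 and the median was -0.48, and of 12 ependymal genes all 12 were below 0 with a median of -0.44, with 0 passing in each by edgeR and 1 in each at an unadjusted p below 0.05. The thalamus score, the mean log2 CPM of the list minus its WT mean, ran from -0.50 to 0.30 in WT and from -0.73 to -0.15 in C3aR KO, so the groups overlapped. Of 18 choroid plexus genes 15 were above 0 with a median of 0.17 and 0 passed, and the summed level ran from 183 to 3205 CPM in WT and from 166 to 5051 CPM in C3aR KO. Of 14 striatum genes 9 were above 0 with a median of 0.13, and of 15 cortical layer genes 9 were above 0 with a median of 0.084, with 0 passing and 3 at an unadjusted p below 0.05 in each. Over all 45 lists 836 genes were tested, Gbp2b was the only one called, and 48 had an unadjusted p below 0.05 (5.74%), against 6% over all genes. By DESeq2, 2 genes of the guanylate-binding list passed, Gbp2b and Gbp11, and 0 of the other lists.

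**Figure D4:**
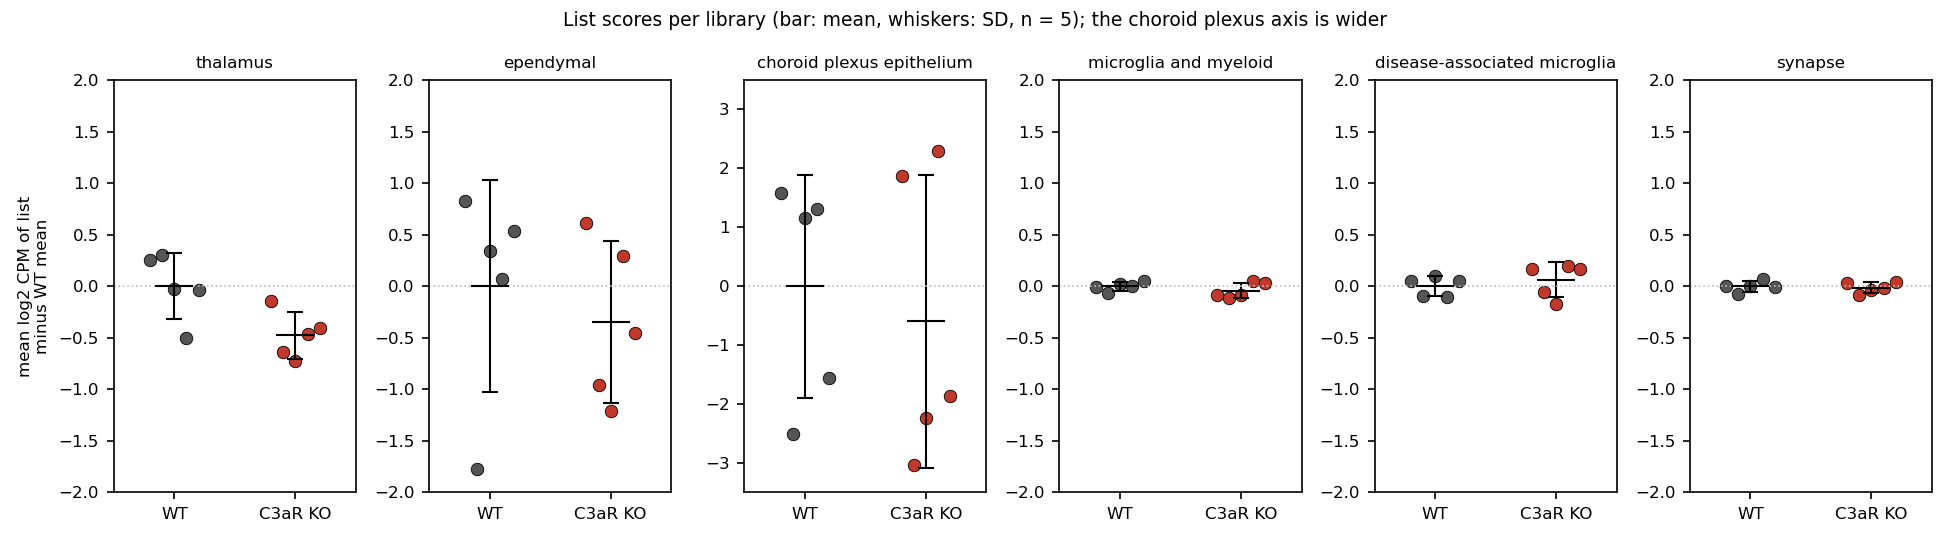
List score per library, the mean log2 CPM of the list minus its WT mean, for 6 lists in WT and in the libraries labelled C3aR KO, with mean and SD. Thalamus scores are lower in C3aR KO with overlap, choroid plexus scores spread over more than 4 log2 units in both groups, and the synaptic scores lie between -0.086 and 0.071.

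The same label difference could be looked for in other libraries, PS19/C3aR KO against PS19, which share no library with the comparison above. There 42 genes passed (0.252%). Of the 10 genes called without the transgene, 9 had the same sign there and 2 passed in the same direction, Cryz with a log2 fold change of 0.34 (edgeR adjusted p = 0.0275) and Kptn with -0.42 (adjusted p = 0.0214). Sec24d was at 24.5, 22.4, 14.2, 22.5 and 13.7 CPM in PS19 and at 13.4, 11.1, 12.4, 13.5 and 12.1 CPM in PS19/C3aR KO. Its groups did not overlap there either, with a log2 fold change of -0.64 (adjusted p = 0.0636), and PS19 libraries 3 and 5 lay close to the lower group. Pcdhga4 was at 10.1 to 13.1 CPM in PS19 and at 13.8 to 16.2 CPM in PS19/C3aR KO (log2 fold change 0.39, adjusted p = 0.0627). Lamtor3, Fam73a, Tubb6 and Col6a4 had log2 fold changes of 0.10, 0.19, 0.18 and -0.59 there, with adjusted p of 0.265, 0.110, 0.531 and 0.513. Without the fifth PS19 library, 7 genes passed in both pairs in place of 2.

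**Figure D5:**
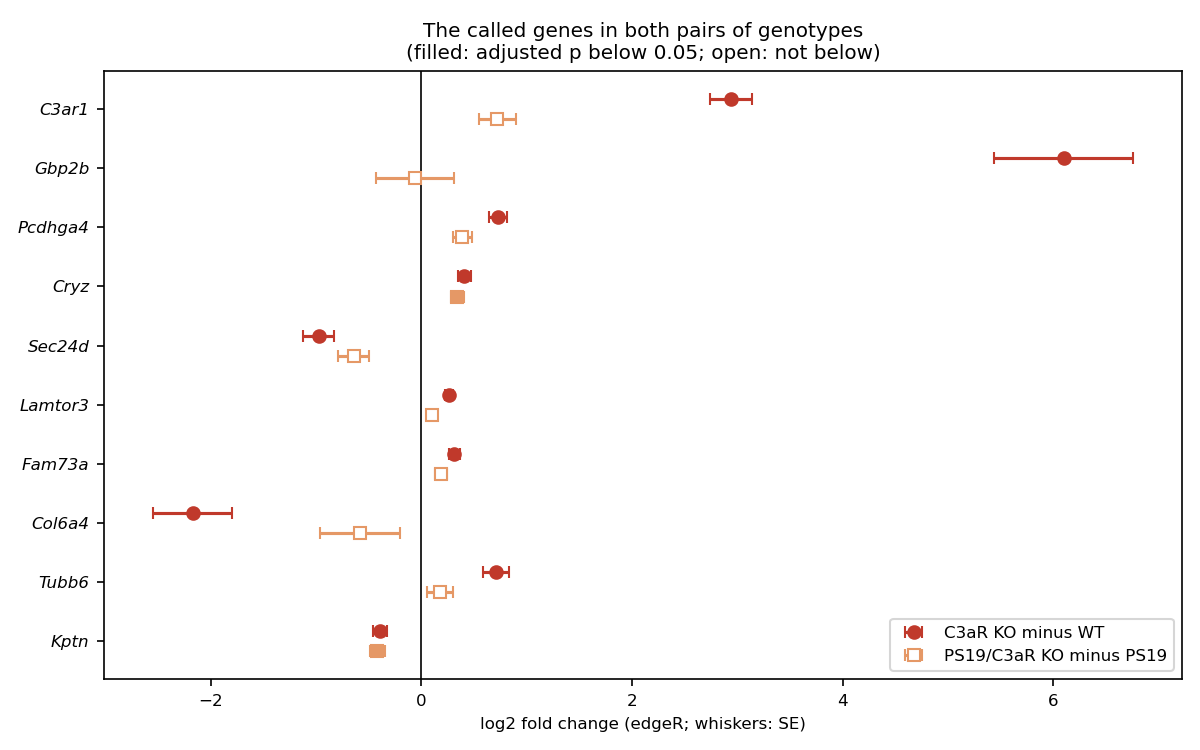
Log2 fold change with SE of the 10 called genes in C3aR KO minus WT (circles) and in PS19/C3aR KO minus PS19 (squares), filled where the adjusted p is below 0.05. All but Gbp2b lie on the same side of 0 in both, and C3ar1 is at 2.94 in the first and 0.72 in the second.

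Counting genes by separation of libraries, 207 genes had no overlap between C3aR KO and WT (1.24%) and 430 between PS19/C3aR KO and PS19 (2.58%). Of these, 20 had no overlap in the same direction in both, which is 9.66% of the first and 4.65% of the second, and 0 had opposite directions. The 20 were C3ar1, Pcdhga4, Cryz, Sec24d, Pcdhgb8, Clcn4-2, Coq2, Pkd2l1, 0610040F04Rik, Rdh13, Gins4, Sypl2, Ltbp4, Akap3, Oscar, Zfp772, Them4, 4930479D17Rik, Vmn2r29 and Rhoq. By position, 16 of the 20 lie on chromosomes 3, 6, 7 and 18, which were singled out after the counts were seen. Chromosome 7 held 6, chromosomes 3 and 6 held 4 each and chromosome 18 held 2. The other chromosomes held 13258 of the 16613 tested genes with a position. They also held 116 of the 205 such genes with no overlap between C3aR KO and WT, and 4 of the 20. On chromosome 7 Zfp772, Vmn2r29 and Clcn4-2 start within a short distance of each other, at 7202122, 7212996 and 7282309. Coq2 was at 42.1, 45.4, 44.3, 48.9 and 48.0 CPM in WT and 52.2, 61.5, 64.2, 53.4 and 61.1 CPM in C3aR KO, and at 39.3 to 42.9 CPM in PS19 and 51.5 to 64.1 CPM in PS19/C3aR KO, where it passed (log2 fold change 0.44, adjusted p = 0.0115).

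Whether the label difference itself depended on the transgene was tested as an interaction, the difference in PS19 mice minus that in mice without the tau transgene. It passed for 2 genes (0.012%), C3ar1 and Gbp2b, and 691 genes (4.15%) had an unadjusted p below 0.05. For C3ar1 it was -2.22 (SE 0.26, by edgeR adjusted p = 0.00106) on the log2 scale, and the PS19 libraries held 11.5, 9.04, 12.3, 13.7 and 4.98 CPM and PS19/C3aR KO libraries 18.05, 18.7, 15.8, 14.96 and 17.5 CPM. For Gbp2b it was -6.16 (SE 0.79, by edgeR adjusted p = 0.00188), a call that limma-voom did not make, and DESeq2 called 3 genes, both of these and Man2b2. In both genes WT was the group that stood apart. Microglial markers moved in the transgenic libraries. Of the 93 microglial and macrophage genes 71 were called higher in PS19 than in WT, and the 32 general myeloid genes had a median log2 fold change of -0.64 in PS19/C3aR KO against PS19 and of -0.060 in C3aR KO against WT. Their part in the interaction was not tested. Set beside WT, the PS19 libraries alone had log2 fold changes of 2.31 for C3ar1, 7.25 for Gbp2b, -1.64 for Col6a4 and 0.78 for Tubb6 (adjusted p = 2.64e-06, 3.36e-06, 0.00640 and 5.32e-04). Over all genes 7.5% were called higher and 3.32% lower in PS19. That comparison uses the same WT libraries, so it is no independent support for these 4 genes. Without the fifth PS19 library the interaction passed for 5 genes, with Ftl1, Hexa and Man2b2 added.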

How the data were processed

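Polyadenylated RNA of 20 hippocampus libraries was measured as 76-nt read pairs. Per the labels' protocols the authors used TopHat 2.0.9 for alignment, mm10 as the genome and HTSeq for counts over exons; the deposited files hold raw counts for 24513 genes, and DESeq2 is named without a role. Annotation release and strand setting: not given in the sources used here. The 5 summary lines per file entered neither library sizes nor tests; pairs meeting no exon were 17.4 to 25.4% in the 10 libraries.

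One edgeR 4.0.16 quasi-likelihood fit (R 4.3.3, TMM, filterByExpr with minimum count 10 and minimum total 15) to all 20 libraries with genotype as the only factor gave every adjusted p, over 16657 genes, called below 0.05. The SE is the fold change divided by the root of F, median 0.097. List scores use a prior count of 2. DESeq2 1.42.0, limma-voom 3.58.1, other scalings, filters, covariates and left-out libraries were alternatives. The script was tested on simulated data. Over the 20 pairs of libraries within WT and within C3aR KO, counts differed by 8.62 to 104 chi-square per degree of freedom, so none of these 10 was a duplicate.

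Members and lists were chosen with earlier results of these data known. Named genes were C3ar1, up to 12 called genes each way with mean log2 CPM 1 or above, without predicted genes, up to 4 called members (or the lowest-p member) of each list, calls within 10 Mb of C3ar1 and interaction calls; further genes were named after their values were seen. Positions and promoters are RefSeq GRCm38.p6, matched for 99.7% of tested genes.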

Additional observations from a re-analysis of the deposited data

Results flagged for a closer look

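Among 46 groups of 5 libraries examined, 4 had 1 library apart from the others, and chance alone gives about 1 in 20. The second WT library had the highest Col6a4 level of its group, 7.19 CPM, where the others had at most 3.24 CPM. In PS19 the fifth library stood apart for Col6a4 at 2.60 CPM, with the next at 0.914 CPM, and the first library had the lowest Kptn level, 18.02 CPM, against 19.2 CPM for the next. The first C3aR KO library held 19.1 CPM of Tcf7l2 against at most 7.69 CPM in the other 4. That library also had the highest Rn45s share of its group, 4.34%. The part of these libraries in the results was not tested beyond leaving out each WT and C3aR KO library and the fifth PS19 library in turn.

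The difference between the libraries labelled C3aR KO and their controls depended on the tau transgene for 2 genes by the edgeR interaction test, of which limma-voom called C3ar1 but not Gbp2b. The interaction was -2.22 on the log2 scale for C3ar1 and -6.16 for Gbp2b, so the difference was lower in the PS19 pair.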

How the results depend on the processing

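C3ar1, Gbp2b and Pcdhga4 passed in all 22 other settings and Sec24d in all but the 1 with Tcf7l2 in the model. The 9 called genes other than C3ar1 kept their call in 154 of 198 cases and lost it in 44, with no change of sign. Genes called numbered 58 by DESeq2, 5 with the fit restricted to the WT and C3aR KO libraries, 4 with the Rn45s share and 4 with Tcf7l2 in the model, and 5 to 15 with 1 library left out, the lowest without the fifth C3aR KO library. Genes called in both pairs, 2 in the main analysis, were 25 by DESeq2, 6 by limma-voom, 1 with library totals only, 0 with the Rn45s share, 4 with Ttr, 1 with Tcf7l2, 7 without the fifth PS19 library and 1 to 4 with 1 other library left out. In the interaction 1 gene passed by limma-voom (C3ar1, not Gbp2b), 3 by DESeq2 and 5 without the fifth PS19 library. With the replicate number as a block, 14 genes were called and 5 passed in both pairs. The same-numbered libraries correlated at -0.27 to 0.55 and only 2 of 5 matched best with their own number, so the numbers were not taken as pairs. With 1 library left out Sostdc1 (0.56) ran from -0.31 to 1.14 and Alas2 (0.29) from -0.23 to 0.48. Sostdc1 reversed to -0.21 by limma-voom, -0.068 with the block and -0.31 without the fourth C3aR KO library, and Alas2 to -0.23 without the second; neither was called, and the cause was not tested. The models with Tcf7l2 and without the fifth PS19 library were added after seeing the data. At this depth the median 95% half-width of a log2 fold change was 0.20.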
